A study of Mus musculus with 19 samples.

Results

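The glypicans and syndecans are the cell-surface heparan sulfate proteoglycans, and their transcripts were compared between retinal ganglion cells (RGCs) whose axons stay on the same side of the brain (iRGCs) and RGCs whose axons cross the midline (cRGCs). The members were chosen by name: the 6 glypican genes Gpc1 to Gpc6 and the 4 syndecan genes Sdc1 to Sdc4 were taken from the count tables by their Ensembl identifiers, which makes 10 of the 47069 genes listed, and all 10 were found. The study sorted GFP-positive cells from mouse retinas at E16.5, when many RGC axons are near the optic chiasm, and sequenced their polyadenylated RNA in 3 libraries of each population. All libraries came from embryos of the C57/DBA F1 strain, with males and females pooled, and all carried a conditional Sun1-GFP reporter that marks the nuclear envelope once Cre recombinase has removed a stop cassette. Cells called iRGCs carried Slc6a4-Cre, which follows the promoter of the serotonin transporter gene. Cells called cRGCs carried Pou4f2-Cre, which follows a gene used by most RGCs, and came from retinas whose ventrotemporal (VT) part, the source of iRGCs, had been cut away. The genotype label reads WT for every sample. Cre leaves its mark on every descendant of a cell in which it acted, so the sort can also collect cells that no longer use the driver gene. The depth of the libraries, as the reads counted on genes, ran from 28193178 to 33638083. The 13 ATAC-seq samples of the series were not analysed here.

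Heparan sulfate is a long, negatively charged sugar chain that is built in the Golgi on a core protein and holds growth factors, morphogens and guidance cues at the cell surface. Glypicans are anchored in the membrane by a lipid and can be released whole by Notum, whereas syndecans span the membrane and carry a short tail that binds the cytoskeleton. In developing axons, heparan sulfate is needed for Slit to act through Robo receptors, and it tunes FGF, Wnt and Hedgehog signals.

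The sorted cells were first set against their labels. Slc6a4, the gene that drives Cre in the iRGC line, had CPM (counts scaled to a common library size after TMM normalisation) of 2.06, 33.3 and 116 in iRGC replicates 1, 2 and 3 and of 48.1, 35.4 and 30.5 in cRGC replicates 1, 2 and 3. The lowest and the highest of these 6 values were both in iRGC libraries, the populations overlapped, and the change did not pass the test (log2 fold change 0.41, edgeR adjusted p = 0.768). Zic2, the transcription factor of the iRGC programme, was higher in iRGCs by 1.34 on the log2 scale (edgeR adjusted p = 0.000209), and Isl2, which marks cRGCs, was lower with a log2 fold change of -2.15 (edgeR adjusted p = 0.00117). Of the 12 RGC markers all were detected in both populations, and 11 were lower in iRGCs. Their median log2 fold change was -1.97, so the value of Isl2 cannot be told apart from a general difference in RGC transcripts. Of the 15 retinal progenitor markers, 13 were higher in iRGCs and 1 was lower. Of all tested genes, 23.3% were higher and 23.1% were lower (edgeR adjusted p under 0.1). The iRGC libraries thus held RGC transcripts together with many transcripts of dividing progenitors, and each result on glypicans and syndecans stands beside that difference in make-up, whose part in it was not tested. In bulk RNA, fewer cells of a type and less RNA per cell cannot be told apart.

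Positions are from the GENCODE M21 annotation of the GRCm38 mouse genome, and all 10 genes are protein-coding. Gpc3 (chrX:52272426-52613950) and Gpc4 (chrX:52053021-52165252) lie next to each other on the minus strand of chromosome X, 107173 bases apart. Gpc5 (chr14:115092215-116525179) and Gpc6 (chr14:116925315-117976544) are neighbours in the same way on the plus strand of chromosome 14, 400135 bases apart. The other glypicans are Gpc1 (chr1:92831645-92860779, plus strand) and Gpc2 (chr5:138273655-138280005, minus strand). The syndecans lie apart from each other: Sdc1 at chr12:8771323-8793715 (plus), Sdc2 at chr15:32920723-33034935 (plus), Sdc3 at chr4:130792537-130826319 (plus) and Sdc4 at chr2:164424247-164443887 (minus).

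Promoter windows of 300 bases, 250 before and 50 after the RefSeq start in GRCm38.p6, were matched by symbol for 7 of the 10 members, and none was matched for Gpc1, Gpc6 and Sdc2. Below are the promoters of Gpc3, whose transcript was higher in iRGCs, and of Gpc2 and Sdc3, whose transcripts were higher in cRGCs, so that both directions can be read side by side. Only bases before the start of the gene in both RefSeq and GENCODE are printed, which are 250 for Gpc3 (chrX:52613975-52614224, minus strand), 182 for Gpc2 (chr5:138280006-138280187, minus strand) and 250 for Sdc3 (chr4:130792287-130792536, plus strand). Sequences run 5′ to 3′ on the strand of the gene, and capitals mark the GC box GGGCGG on either strand.
Gpc3: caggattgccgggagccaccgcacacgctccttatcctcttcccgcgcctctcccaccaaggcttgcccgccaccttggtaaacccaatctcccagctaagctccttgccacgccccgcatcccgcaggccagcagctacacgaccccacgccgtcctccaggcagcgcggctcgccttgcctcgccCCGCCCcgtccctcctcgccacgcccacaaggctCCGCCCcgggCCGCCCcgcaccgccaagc
Gpc2: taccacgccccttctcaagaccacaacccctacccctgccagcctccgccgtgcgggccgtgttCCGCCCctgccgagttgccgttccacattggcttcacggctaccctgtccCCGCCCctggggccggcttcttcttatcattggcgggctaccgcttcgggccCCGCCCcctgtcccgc
Sdc3: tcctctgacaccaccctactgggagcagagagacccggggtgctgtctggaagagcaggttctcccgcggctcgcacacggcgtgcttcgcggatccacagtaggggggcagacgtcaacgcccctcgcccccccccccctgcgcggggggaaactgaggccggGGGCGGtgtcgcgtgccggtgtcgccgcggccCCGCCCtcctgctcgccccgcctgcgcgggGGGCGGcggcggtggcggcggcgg
Each of these stretches holds 3 GC boxes. Over the full windows the motif occurred in 7 of 7 members, with 4 matches in Gpc3 and Sdc4, 3 in Gpc2, Sdc1 and Sdc3, and 1 in Gpc4 and Gpc5, against 35.7% of all 32851 promoters in the table. The letters CCTGCTG, from the core of the Zic motif, were in none of the 7 windows and in 10.5% of all promoters. The letters ATAATTAAT, from the Pou4f motif, were in none of the 7 and in 0.274% of all. Both strands were searched, the motifs share no bases in these windows, and a match is a match of letters only.

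Of the 10 members, 9 passed the filter on low counts and were tested, and 5 of them (Gpc3, Gpc4, Gpc6, Sdc2 and Sdc4) were higher in iRGCs, 3 (Gpc1, Gpc2 and Sdc3) were lower and 1 (Sdc1) did not pass an adjusted p of 0.1. Among all 15941 tested genes, 23.3% were higher and 23.1% were lower by the same rule. In each of the 8 called members the libraries of the 2 populations did not overlap, with 5 above in iRGCs and 3 above in cRGCs, against 27.1% and 28.2% of tested genes. With a log2 fold change beyond 1 asked as well, 5 were higher and 1, Gpc2, was lower, against 12.1% and 11.0% of tested genes. The median log2 fold change of the 9 tested members was 1.04, and that of all tested genes was -0.0031. The labels number the libraries as replicates and the series calls them biological, but nothing says which embryos or litters each came from, so p-values measure the spread between these libraries.

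**Figure D1:**
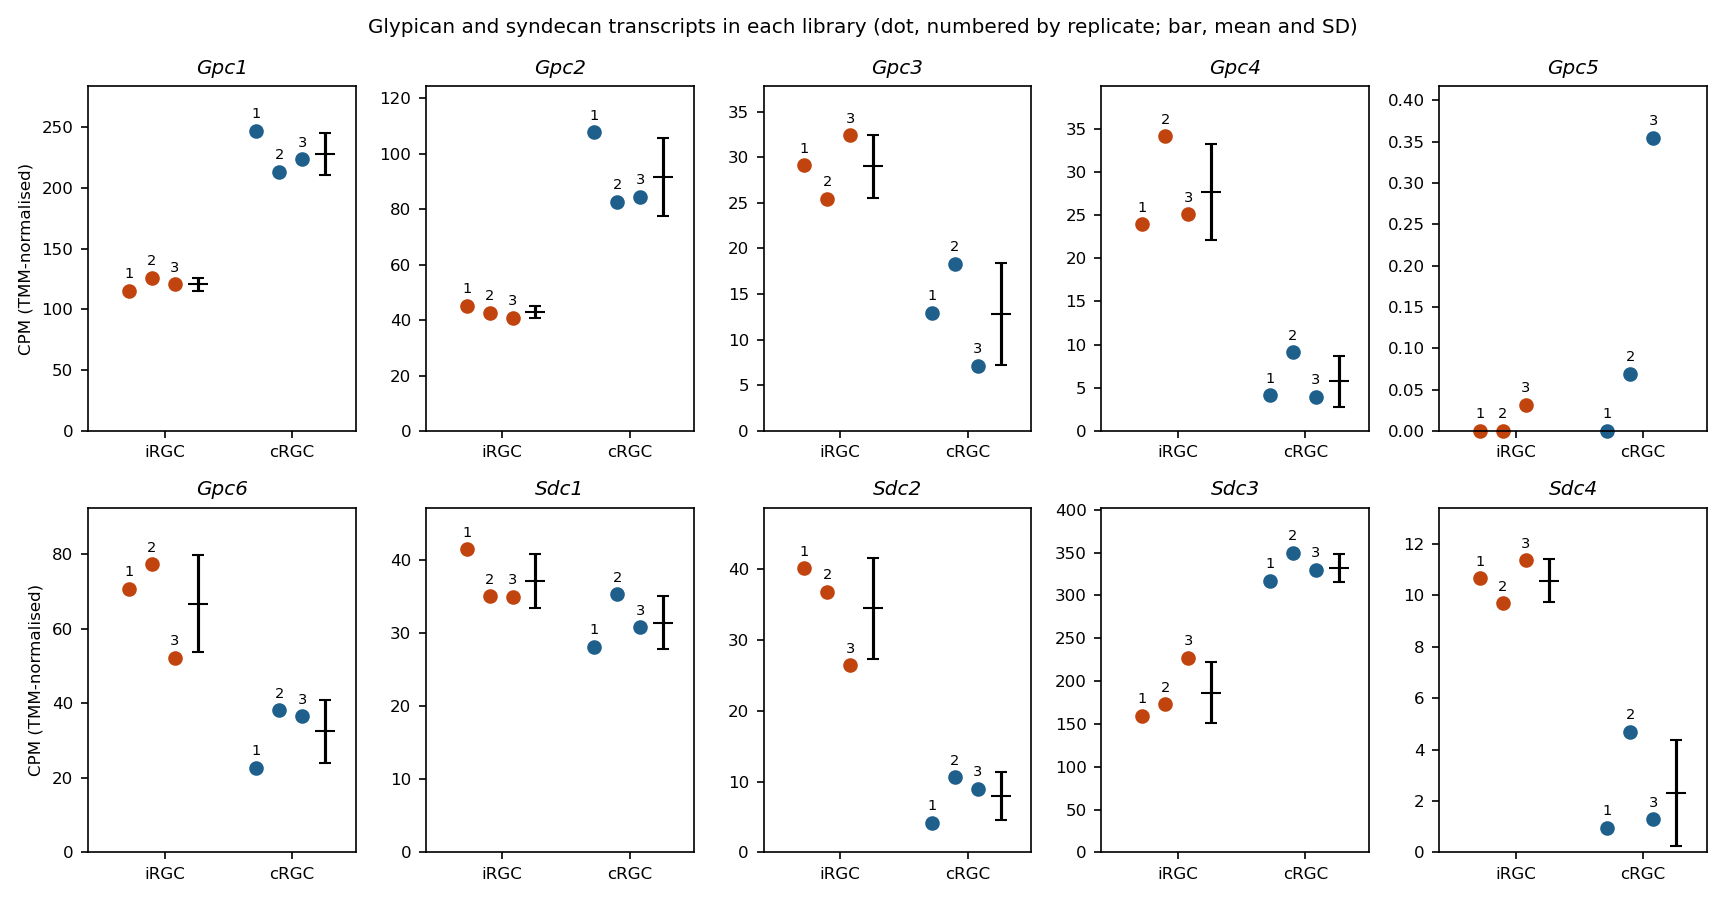
CPM of the 10 genes (y axes, each from 0) in the 3 iRGC and 3 cRGC libraries; dots are libraries numbered by replicate, and bars give mean and SD, left out for Gpc5. Gpc3, Gpc4, Gpc6, Sdc2 and Sdc4 sat higher in every iRGC library, Gpc1, Gpc2 and Sdc3 sat higher in every cRGC library, and Sdc1 and Gpc5 overlapped.

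Gpc4, a glypican that is best known as an astrocyte signal for synapse formation and that also binds the receptor Gpr158, had CPM of 23.9, 34.1 and 25.1 in iRGC replicates 1 to 3 and of 4.11, 9.14 and 3.97 in cRGC replicates 1 to 3. Every iRGC library lay well above every cRGC library, and the second library was the highest in each population. The mean was 27.7 ± 5.57 (SD, n = 3) against 5.74 ± 2.95, a log2 fold change of 2.27 ± 0.35 (SE) (edgeR adjusted p = 0.00106). Gpc3, the glypican lost in an inherited overgrowth syndrome and a brake on Hedgehog signals, had CPM of 29.1, 25.4 and 32.4 in iRGCs and of 12.9, 18.3 and 7.16 in cRGCs. The gap between the lowest iRGC and the highest cRGC library was narrow, and cRGC replicates 2 and 3 lay far apart. Gpc3 was 2.27-fold higher in iRGCs (log2 fold change 1.18 ± 0.31 SE, edgeR adjusted p = 0.0149). Although Gpc3 and Gpc4 are neighbours on the chromosome and both were higher in iRGCs, the intervals of their log2 fold changes were 0.48 to 1.89 and 1.48 to 3.07 (95%), and their difference was not tested.

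Gpc6, a close relative of Gpc4 that is also a synaptogenic signal, had CPM of 70.7, 77.2 and 52.2 in iRGCs and of 22.7, 38.1 and 36.4 in cRGCs. The populations did not overlap, with the lowest iRGC value in replicate 3 and the lowest cRGC value in replicate 1. It was 2.06-fold higher in iRGCs (log2 fold change 1.04 ± 0.22 SE, edgeR adjusted p = 0.00554). Its neighbour Gpc5, a promoter of Hedgehog signals, was all but absent, with 0, 0 and 1 counts in iRGCs and 0, 2 and 11 counts in cRGCs. It was not tested, and where no read was counted its level could still have reached 0.0925 to 0.115 CPM, which is what 3 counts make in these libraries (counting error only).

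Gpc1, a glypican of neurons and glia that can bind Slit, was the most abundant glypican in both populations, with CPM of 116, 126 and 121 in iRGCs and of 247, 213 and 223 in cRGCs. The libraries of each population lay close together and far from those of the other. Gpc1 was lower in iRGCs with a log2 fold change of -0.91 ± 0.10 (SE), which makes it 1.88-fold higher in cRGCs, with the smallest adjusted p of the 9 tested members (edgeR adjusted p = 0.000287). Gpc2, also called cerebroglycan, is a glypican of young neurons that are growing axons. It had CPM of 45.2, 42.7 and 40.9 in iRGCs and of 108, 82.6 and 84.4 in cRGCs, again with no overlap and with the highest value in cRGC replicate 1. Its log2 fold change was -1.09 ± 0.14 (SE), a level 2.13-fold higher in cRGCs (edgeR adjusted p = 0.000432).

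Part of the exons of both genes is shared with other annotated genes. For Gpc2 this part was 55.6% of the exonic bases, held with Gm43720 on the same strand, which itself had 0 to 5 counts per library. Reads on these bases go to neither gene, so the counts of Gpc2 come from the other 1898 exonic bases. For Gpc1 it was 18.9%, held with Ankmy1 on the opposite strand, which had 0 to 20 counts. Reads there are left out only where the counting ignored strand, and its strand setting is not given in the sources used here.

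Among the syndecans, Sdc2, which is best known from dendritic spines and blood vessels, had CPM of 40.1, 36.8 and 26.4 in iRGCs and of 4.19, 10.6 and 9.00 in cRGCs. Every iRGC value exceeded every cRGC value, with the lowest of all in cRGC replicate 1. Its mean was 34.4 ± 7.15 (SD, n = 3) against 7.94 ± 3.35, a 4.33-fold difference (log2 fold change 2.12 ± 0.34 SE, edgeR adjusted p = 0.00125). Sdc4, the syndecan of focal adhesions, was the least abundant tested member, with CPM of 10.7, 9.68 and 11.4 in iRGCs and of 0.960, 4.69 and 1.29 in cRGCs. The iRGC libraries were alike, while cRGC replicate 2 stood several-fold above the other cRGC libraries. The log2 fold change of Sdc4 was 2.19 ± 0.58 (SE, edgeR adjusted p = 0.0149), and it rose to 3.24 without cRGC replicate 2 (edgeR adjusted p = 0.000868).

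Sdc3, called N-syndecan for its place in the nervous system and a receptor for the growth factor pleiotrophin in neurite outgrowth, was the most abundant of all 10 genes in CPM. It had 159, 173 and 227 CPM in iRGCs and 317, 350 and 330 CPM in cRGCs. The cRGC libraries lay close together, whereas iRGC replicate 3 exceeded the other iRGC libraries without reaching any cRGC library. Sdc3 was 1.78-fold higher in cRGCs (log2 fold change -0.83 ± 0.14 SE, edgeR adjusted p = 0.00176), and 7.73% of its exonic bases are shared with 2 genes on the opposite strand, Gm12970 and Gm26716, which had 0 to 4 counts per library. Sdc1, the syndecan of epithelia and of dividing neural progenitors, had CPM of 41.4, 35.0 and 35.0 in iRGCs and of 28.2, 35.3 and 30.8 in cRGCs. The highest cRGC value lay above the lower iRGC values, and the log2 fold change of 0.24 (95% interval -0.10 to 0.58) did not pass the test (edgeR adjusted p = 0.243). With CPM of the library totals in place of TMM, which shifts the median log2 fold change of all genes by 0.21, Sdc1 reached 0.45 and passed (edgeR adjusted p = 0.0513); over its 18 alternatives the adjusted p of Sdc1 was 0.0513 to 0.539.

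**Figure D2:**
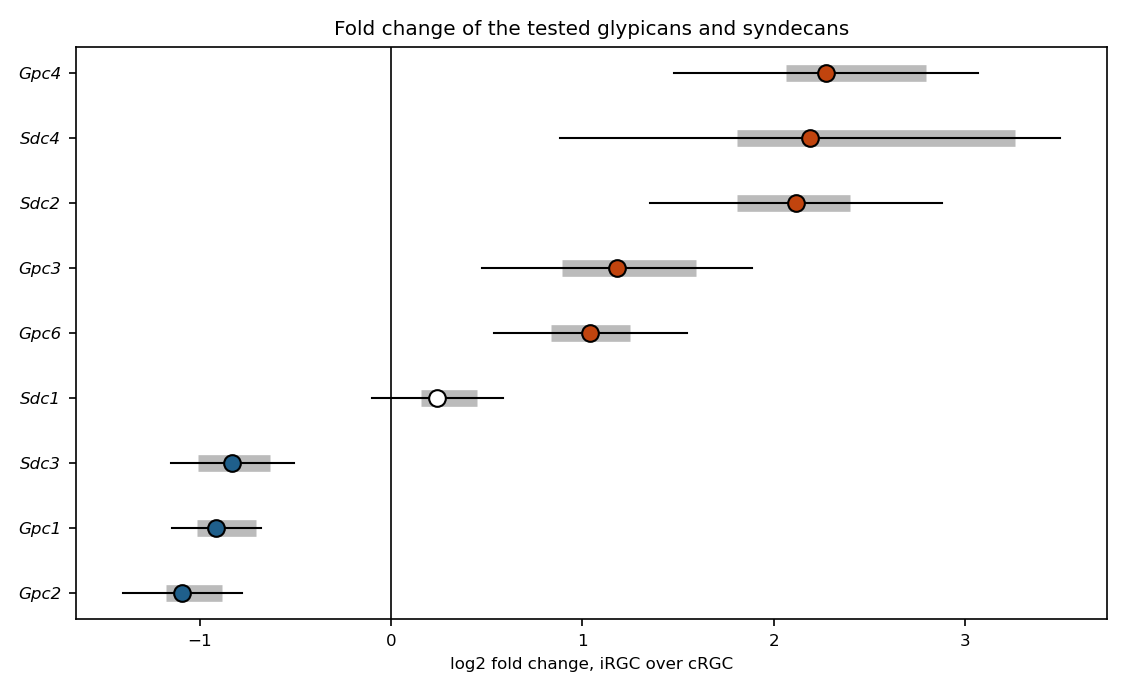
Log2 fold change of iRGC over cRGC (x axis) for the 9 tested genes, in order of size; dots are the edgeR estimates, orange where higher in iRGC, blue where lower and white where not past the test, black lines are 95% intervals and grey bars span 18 alternative analyses. Grey bars of all 9 genes stay on one side of 0, from -1.18 at the low end for Gpc2 up to 2.80 for Gpc4 and 3.26 for Sdc4, which has the widest bar. Alternatives that changed only the threshold reuse the edgeR estimates of the dots.

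Per kilobase of exon, which allows genes to be compared with each other, Sdc3 and Gpc1 led in both populations. In cRGCs the levels fell off steeply, from 55.5 ± 2.75 CPM per kilobase (SD, n = 3) for Sdc3, 44.1 ± 3.35 for Gpc1 and 21.4 ± 3.28 for Gpc2 to 8.25 ± 0.95 for Sdc1, and none of these neighbours in the order overlapped. Below them came Gpc6 (5.05), Gpc3 (4.76), Sdc2 (2.25), Gpc4 (2.16) and Sdc4 (0.91), and in this run the libraries of each gene overlapped those of the next. In iRGCs, Sdc3 at 31.2 ± 6.02 and Gpc1 at 23.4 ± 1.03 stood alone, followed by Gpc3, Gpc4, Gpc6, Gpc2, Sdc2 and Sdc1, whose means ran from 10.8 down to 9.75 CPM per kilobase and whose libraries overlapped from each gene to the next. The place of Gpc2 depended on the length used: over the exonic bases that no other gene shares it stood at 22.6 ± 1.15 in iRGCs and 48.3 ± 7.40 in cRGCs, next to Gpc1 at 28.9 ± 1.27 and 54.5 ± 4.13, while Gpc3, Gpc4, Gpc6, Sdc1, Sdc2 and Sdc4, which share no bases, kept their values. Sdc4 stood below them at 4.15 ± 0.33. Set among the 15883 tested genes with a length, Gpc4 had a higher level than 67.7% of them in iRGCs and than 34.3% in cRGCs, and Sdc2 than 66.0% and 34.9%. By all exonic bases, Gpc2 moved the other way, above 66.7% of genes in iRGCs and 84.2% in cRGCs.

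The make-up of both families differed between the populations. Gpc1 and Gpc2 made up 36.0% ± 1.22 (SD, n = 3) and 15.5% ± 1.04 of the summed glypican level per kilobase in iRGCs, and 56.9% ± 2.87 and 27.5% ± 2.65 in cRGCs. Gpc4 held 16.0% ± 2.40 of that level in iRGCs and 2.80% ± 1.46 in cRGCs. Gpc3 held 16.7% against 6.10%, and Gpc6 15.9% against 6.58%. With the unshared bases as length, Gpc2 held 27.2% ± 1.57 in iRGCs and 41.9% ± 2.98 in cRGCs, Gpc1 34.8% and 47.5%, and Gpc4 12.5% and 1.91%, so the directions stayed and the share of Gpc2 grew. The summed glypican level was 63.8, 68.8 and 62.6 CPM per kilobase in iRGC replicates 1 to 3 and 83.0, 76.8 and 73.0 in cRGC replicates 1 to 3, so every cRGC library was the higher. Among syndecans, Sdc3 held 56.5% ± 7.14 in iRGCs and 83.1% ± 2.51 in cRGCs, while Sdc2 held 18.0% ± 4.69 against 3.31% ± 1.21. Sdc4 held 7.57% ± 0.31 against 1.30% ± 1.07, and Sdc1, the member that did not pass the test, 17.9% against 12.3%. The summed syndecan level was 53.0, 52.3 and 59.1 CPM per kilobase in iRGCs and 61.9, 72.5 and 66.2 in cRGCs, again without overlap. These sums were not tested, and with library totals in place of TMM both families overlapped, with glypican sums of 64.4 to 74.9 in iRGCs and 67.3 to 76.4 in cRGCs and syndecan sums of 57.0 to 60.8 and 57.0 to 69.0.

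**Figure D3:**
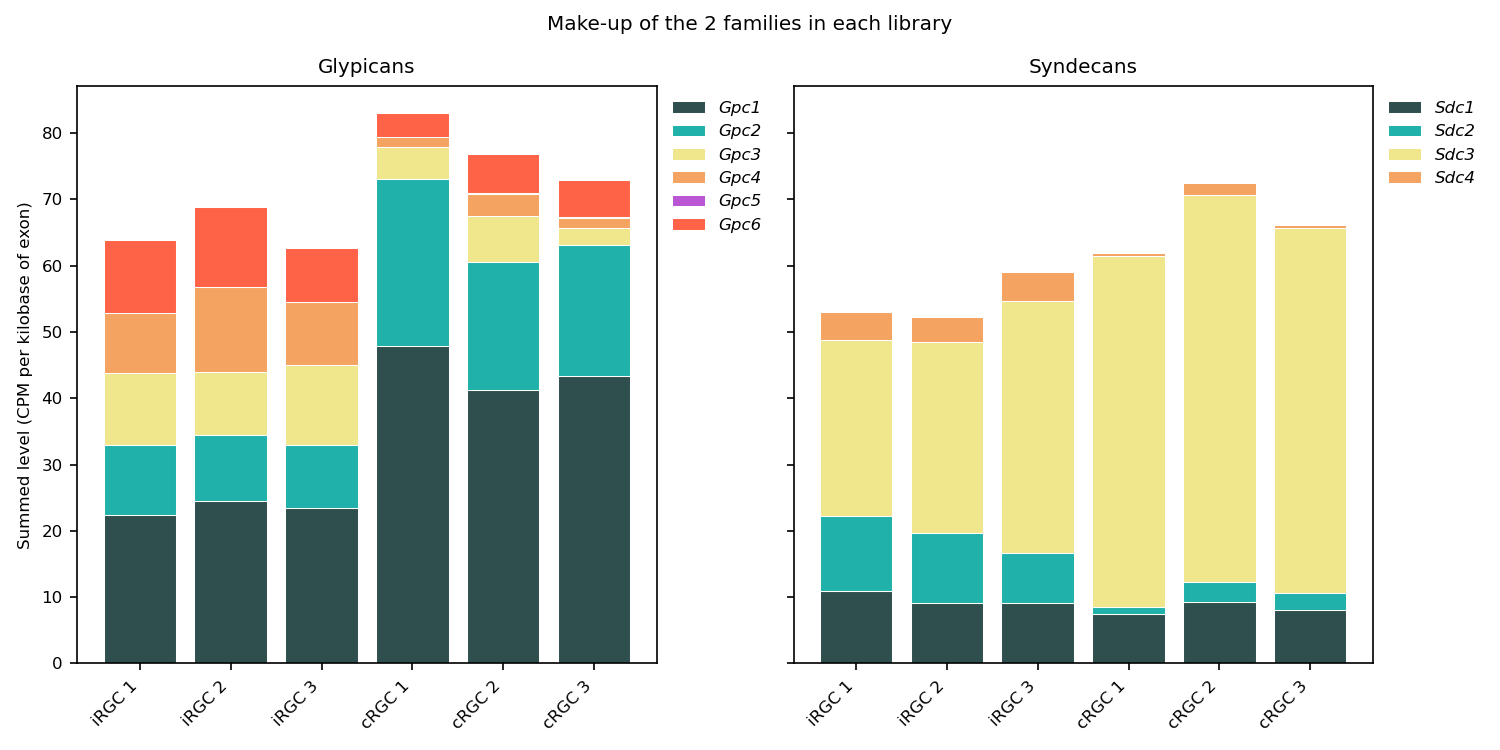
Summed CPM per kilobase of exon (y axis, from 0) of the glypicans (left) and syndecans (right) in each of the 6 libraries (x axis), with the segments of each bar standing for the genes. Gpc1, Gpc2 and Sdc3 fill most of the cRGC bars, and the iRGC bars, shorter on this TMM scale, hold larger segments of Gpc3, Gpc4, Gpc6, Sdc2 and Sdc4.

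Markers of other cells also varied between libraries, in part with the members. The second cRGC library had the highest cRGC values of Gpc3, Gpc4, Gpc6, Sdc1, Sdc2 and Sdc4, and of Sdc3, which was lower in iRGCs, and its progenitor markers summed to 3154 CPM, against 2221 and 2722 in cRGC replicates 1 and 3. In iRGCs the same 15 markers summed to 9182, 8195 and 7395 CPM, with the cell cycle gene Ccnd1 the most abundant at 2517 to 3357 CPM. RGC markers summed to 1875, 2608 and 4123 CPM in iRGC replicates 1 to 3 and to 10960, 9883 and 11951 CPM in cRGC replicates 1 to 3, led by the neurofilament genes Nefm and Nefl and the growth cone gene Gap43 in an order that differed between libraries. Sdc3 and the RGC sum were both highest among iRGCs in replicate 3, but Gpc2, also higher in cRGCs, was lowest there at 40.9 CPM. Gpc3 and Sdc4 were highest among iRGCs in that same replicate, where the progenitor sum was lowest, and in cRGCs Gpc3 was lower in replicate 3 than in replicate 1 although its progenitor sum was higher. The part of these shifts in the results was not tested.

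Vessel cells were also looked for, because Sdc2, Gpc3 and Gpc4 are not confined to neurons. The 12 endothelial markers summed to 464, 732 and 434 CPM in iRGCs and to 88.2, 109 and 72.3 CPM in cRGCs. Kdr, which retinal progenitors also express, was the most abundant in every library and held most of the sum in all but iRGC replicate 2, where it was at 319.8 of 732 CPM. Apart from Kdr and Cldn5, every listed endothelial marker was highest in iRGC replicate 2. Cdh5 was at 81.1 CPM there, against 15.2 and 0.157 in iRGC replicates 1 and 3 and 0 in all 3 cRGC libraries. Cldn5 was at 26.0, 25.2 and 11.7 CPM in iRGC replicates 1 to 3 and at 0.884 to 2.93 in cRGCs. The pericyte gene Rgs5 was at 93.6 CPM in iRGC replicate 2, against 3.76 and 2.24 in the other iRGC libraries. The 10 mural cell markers together summed to 138, 282 and 124 CPM in iRGCs and 21.9, 33.1 and 24.0 CPM in cRGCs. Of these sums Notch3 alone held 112.5, 117 and 83.4 CPM in iRGCs and 17.1, 26.7 and 18.6 CPM in cRGCs. That was most of the sum in every library but iRGC replicate 2. Of 8 tested endothelial markers 8 were higher in iRGCs, and of 6 tested mural markers 5 were. Markers of vessels and blood that were at or near 0 in cRGCs, such as Adgrf5, Rgs5 and Alas2, passed the filter on low counts through the iRGC libraries, which fixed their direction, so these counts are a description only. Gpc4 and Gpc6 were at their highest in iRGC replicate 2, whereas Sdc2, Sdc4 and Gpc3 were not. Of the members lower in iRGCs, Gpc1 was highest there among the iRGC libraries, and Gpc2 and Sdc3 were not. Without the second library of both populations the log2 fold changes were 2.58 for Gpc4, 1.59 for Gpc3, 1.03 for Gpc6, 2.31 for Sdc2 and 3.26 for Sdc4, with edgeR adjusted p from 0.00229 to 0.0428. These libraries were chosen after seeing the data, iRGC replicate 1 still held Cdh5, and the part of vessel cells in the results was not tested.

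Markers of the remaining cell types varied in abundance. The 5 ciliary margin markers summed to 66.7, 251 and 20.6 CPM in iRGCs and to 3.07, 5.52 and 9.38 in cRGCs, with Ccnd2 the most abundant by its mean over all libraries, and 4 of 5 were higher in iRGCs. Of these, Wfdc1 and Msx1 were at or near 0 in cRGCs and passed the filter on low counts through the iRGC libraries. Their direction was thus fixed, and the count is a description only. Erythroid markers reached 92.5 CPM in iRGC replicate 2, led by the globin Hbb-bs at 49.9, against 12.2 and 15.2 in iRGC replicates 1 and 3 and at most 5.10 in cRGCs, and 4 of 4 tested were higher. That count falls under the limit given above for markers of blood. Microglial markers summed to 16.7 to 27.0 CPM in iRGCs and 1.11 to 4.24 in cRGCs, with Csf1r the most abundant in iRGCs and 4 of 8 tested higher. These 4, C1qa, C1qb, C1qc and Csf1r, had few or no counts in cRGCs and passed the filter through the iRGC libraries. Their count is likewise a description only. Tissues around the retina gave little signal. Mesenchymal markers summed to 11.1 to 39.2 CPM in iRGCs and 10.9 to 12.0 in cRGCs, with 2 of 5 tested higher, Col1a2 the most abundant in iRGC replicates 1 and 2 and Pdgfra in the other libraries, and Lum at 0 in all libraries. Of the 2 higher, Prrx1 was at 0 in every cRGC library and passed the filter through the iRGC libraries, which fixed its direction. Pigment epithelium stayed at or below 7.74 CPM in all libraries with none of 4 tested markers past the threshold, and lens at or below 8.73 CPM with none of 2, its defining genes Mip and Lim2 being at 0 throughout. Astrocyte and optic stalk markers stayed at or below 9.57 CPM, with 1 of 2 tested, Aldh1l1, lower. Markers of young neurons were plentiful in iRGCs, with 7 of 7 neurogenic precursor, 5 of 5 photoreceptor precursor and 5 of 8 amacrine and horizontal cell markers higher and none lower. Their sums were 1135 to 1265, 581 to 783 and 258 to 386 CPM in iRGCs and 254 to 448, 98.2 to 193 and 114 to 175 CPM in cRGCs, led in iRGCs by Hes6, Otx2 and Tfap2b.

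**Figure D4:**
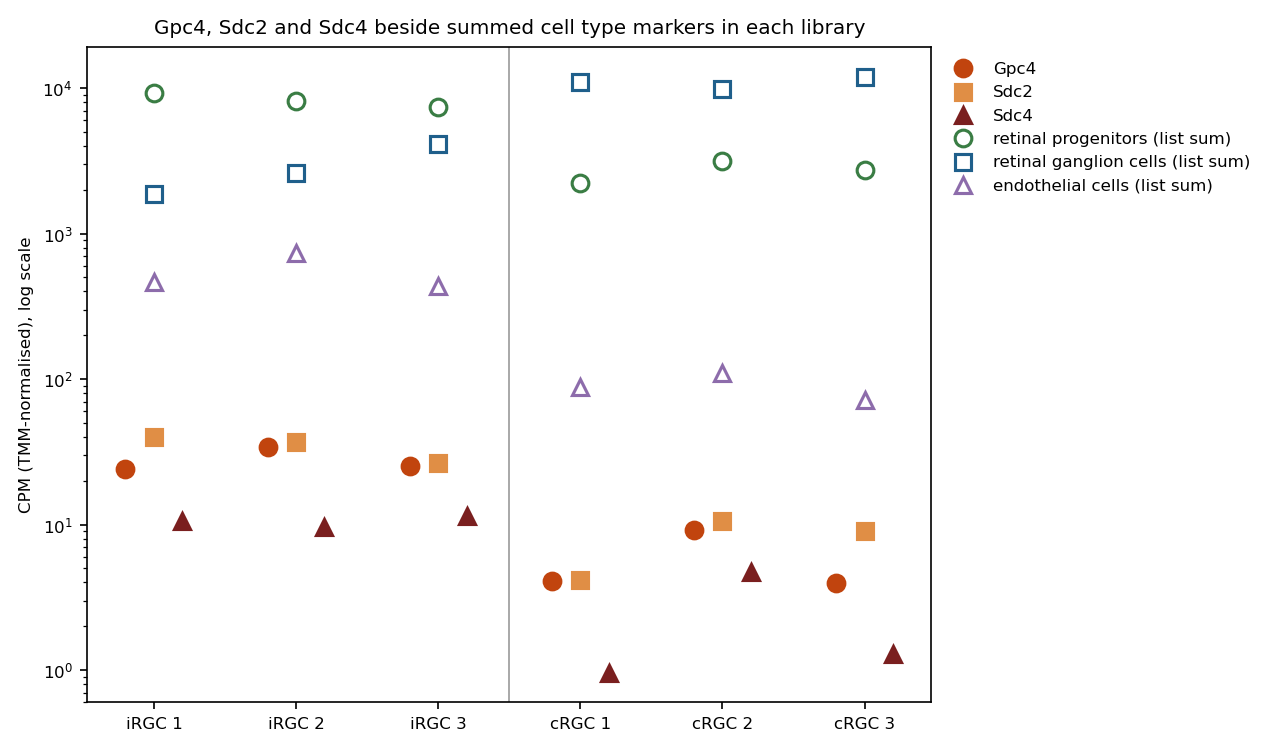
CPM (y axis, log scale) of Gpc4, Sdc2 and Sdc4 (filled symbols) and the summed CPM of 3 cell type marker lists (open symbols) in each of the 6 libraries (x axis). Progenitor and endothelial sums and the 3 genes are higher in every iRGC library, RGC sums are higher in every cRGC library, and within cRGCs replicate 2 is highest for the 3 genes and for the progenitor and endothelial sums and lowest for the RGC sum.

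The proteins around glypicans and syndecans were read from 6 lists of 68 genes, chosen by their known roles in heparan sulfate biology. Of the 65 tested, 25 were higher in iRGCs, 25 were lower and 15 did not pass, shares of genes to be read against the 23.3% and 23.1% given above, and their median log2 fold change was -0.20. Among the 9 other core proteins, 4 were higher and 4 lower. The higher genes include Srgn, with 0, 3 and 0 counts in cRGC replicates 1 to 3. It passed the filter on low counts through the iRGC libraries, which fixed its direction here and among the 25. With at least 10 counts asked in every library, 3 core proteins were higher. Col18a1, the collagen XVIII of basement membranes, had CPM of 120.3, 241 and 75.4 in iRGCs and of 8.64, 23.7 and 14.0 in cRGCs (log2 fold change 3.24, edgeR adjusted p = 0.000896), and Hspg2, perlecan, had 86.0, 217 and 43.5 in iRGCs and 7.61, 16.8 and 10.4 in cRGCs (3.32, edgeR adjusted p = 0.00174). Both peaked in iRGC replicate 2, the library with the most endothelial transcripts, and both were also above every cRGC library in the other iRGC replicates. The part of vessel cells in both differences was not tested. Cd44, a hyaluronan receptor, was higher as well (log2 fold change 3.17, at most 8.51 CPM). Agrn, the agrin of basement membranes and synapses, was lower in iRGCs, at 704, 832 and 808 CPM in iRGCs and 1707, 1478 and 1793 CPM in cRGCs (log2 fold change -1.09, edgeR adjusted p = 0.000258). The testicans Spock2 and Spock1 had log2 fold changes of -1.61 and -1.62.

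Of 10 tested genes for the linker and the polymer of the chain, 3 were higher, 5 lower and 2 did not pass, and none passed with a log2 fold change beyond 1, against 12.1% higher and 11.0% lower of all tested genes. Ext1 and Ext2, the pair that polymerises the chain, were higher in iRGCs by 0.65 and 0.45 on the log2 scale, without overlap, and Xylt1, which adds the first sugar, by 0.77 with overlapping libraries (edgeR adjusted p = 0.0648). B3gat3 and B4galt7, which build the linker, and Extl3, which starts the polymer, had log2 fold changes of -0.63, -0.68 and -0.46. Among 17 tested enzymes that modify the chain, 5 were higher, 6 lower and 6 did not pass. Sulf2 and Sulf1, which remove 6-O-sulfates from finished chains outside the cell, were higher in iRGCs, Sulf2 with 259, 312 and 249 CPM against 111, 142 and 166 (log2 fold change 0.97, edgeR adjusted p = 0.00154) and Sulf1 with 18.6, 13.4 and 20.4 CPM against 3.27, 8.07 and 5.13 (1.67, edgeR adjusted p = 0.00505). Hs6st1, which adds 6-O-sulfates, was lower in iRGCs, with 76.9, 71.3 and 90.3 CPM against 161, 149 and 164 CPM (log2 fold change -0.99, edgeR adjusted p = 0.000372). The N-deacetylase and N-sulfotransferase genes split. Ndst4 and Ndst3 had log2 fold changes of -2.10 and -1.78, Ndst2 had 0.55, and Ndst1, the most abundant of them in CPM, had -0.10 and did not pass.

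All 10 tested genes for release and cleavage passed the test, 7 higher in iRGCs and 3 lower, against 23.3% and 23.1% of all tested genes. The 7 include Pcsk6, with 6, 78 and 64 counts in cRGC replicates 1 to 3 (edgeR adjusted p = 0.0721). It passed the filter on low counts only with the iRGC libraries, which bears on its direction here and in the count over all lists. With at least 10 counts asked in every library, 6 were higher. Adam17, a sheddase of syndecans, had 70.2, 67.3 and 59.9 CPM in iRGCs and 15.5, 30.4 and 25.8 in cRGCs (log2 fold change 1.46, edgeR adjusted p = 0.00117). Mmp14, a membrane-bound protease that also cuts syndecans, was higher by 1.29 on the log2 scale, with 110.4 to 112 CPM in iRGCs and 33.5 to 55.1 in cRGCs. Hpse, the heparanase that cuts the chain itself, was at 2.81 to 4.08 CPM in iRGCs and 0.414 to 0.484 in cRGCs. Adam10, another sheddase, went the other way, with 232, 278 and 289 CPM in iRGCs and 460, 462 and 763 in cRGCs (log2 fold change -1.08, edgeR adjusted p = 0.00287), as did the convertase gene Pcsk7 (-0.64) and Mmp2 (-1.24).

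Of the 7 cytoplasmic partners of syndecans, 3 were higher, 1 lower and 3 did not pass. Ezr, the ezrin that ties membrane proteins to actin, was 5.28-fold higher in iRGCs, with 55.1, 41.9 and 43.7 CPM against 4.38, 12.0 and 10.3 (edgeR adjusted p = 0.000695). Pdcd6ip, which joins syndecans to vesicle budding, and Tiam1, an activator of Rac, were higher by 0.57 and 0.42, Tiam1 with overlapping libraries. Cask, a synaptic scaffold that binds the syndecan tail, had 131, 143 and 157 CPM in iRGCs and 307, 290.2 and 312 in cRGCs (log2 fold change -1.07, edgeR adjusted p = 0.000218). Sdcbp, the syntenin that binds the same tail, had a log2 fold change of -0.25 and did not pass.

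Of the 12 receptors that bind heparan sulfate or its core proteins, 3 were higher, 6 lower and 3 did not pass. Fgfr1, Fgfr2 and Fgfr3, which need heparan sulfate to hold their ligands, rose in iRGCs by 1.01, 2.49 and 2.20 on the log2 scale, and Fgfr1 was the most abundant of them at 74.7 to 94.0 CPM against 39.9 to 42.8. Robo2, a Slit receptor of RGC axons, was lower with a log2 fold change of -1.07, at 289 to 338 CPM in iRGCs and 632 to 697 in cRGCs (edgeR adjusted p = 0.000219). Ptprd, a receptor phosphatase of the LAR family, had -1.05, and Gpr158, the receptor that Gpc4 binds, had -1.31, with 6.51 to 8.03 CPM in iRGCs and 14.6 to 20.4 in cRGCs. Gpc4 and Gpr158 thus differed in opposite directions.

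**Figure D5:**
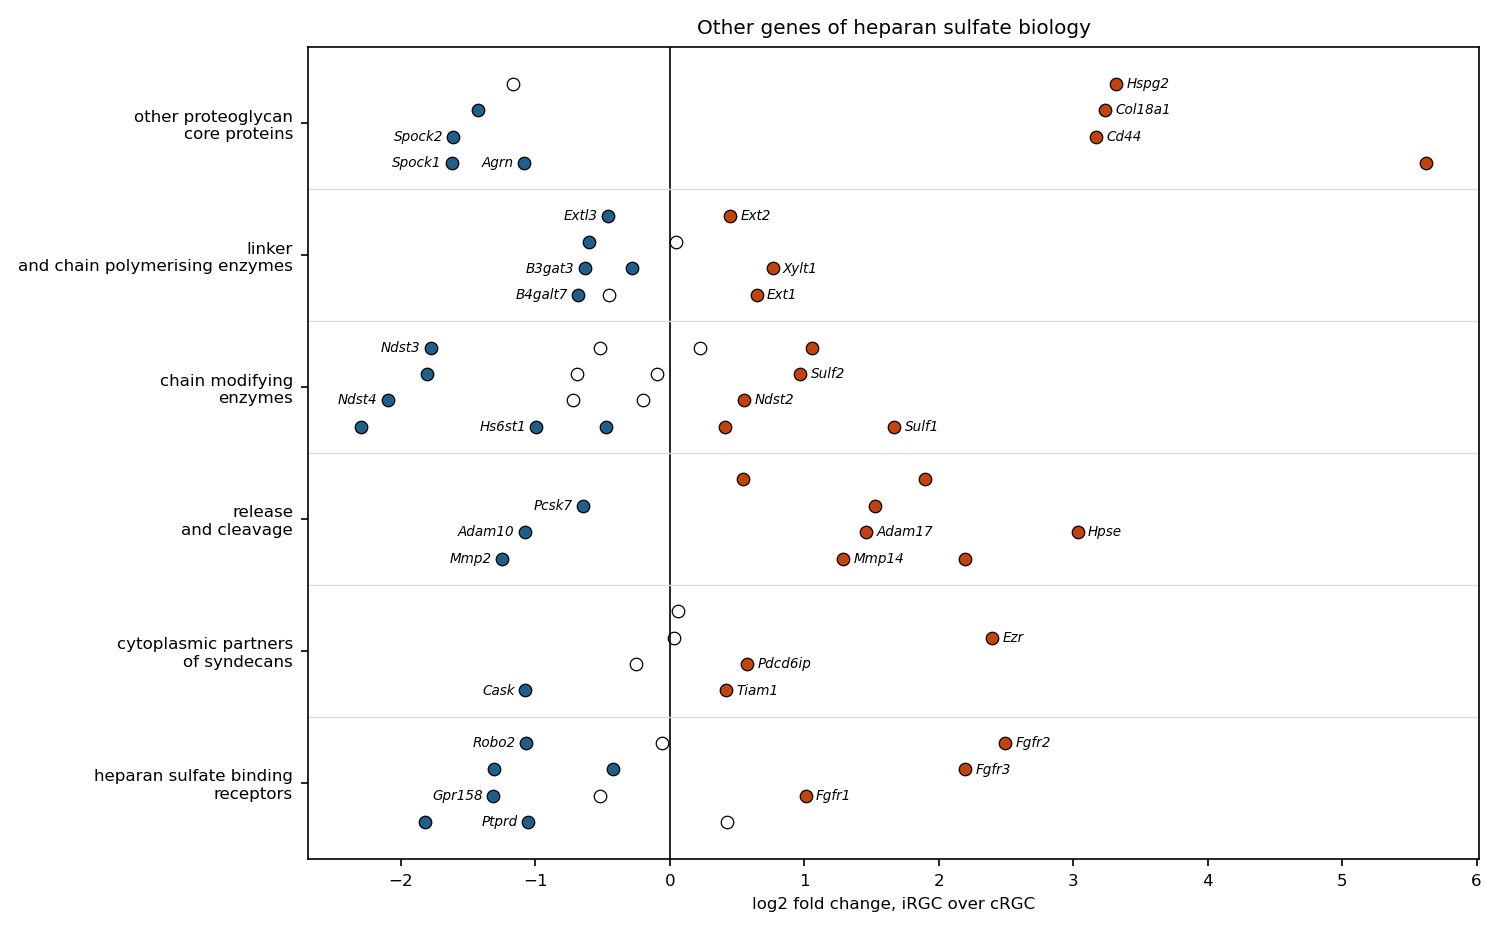
Log2 fold change of iRGC over cRGC (x axis) of the 65 tested genes of 6 heparan sulfate lists (rows; height within a row has no meaning); orange dots are higher in iRGC, blue lower and white not past an adjusted p of 0.1, and the up to 3 genes with the smallest adjusted p per list and direction are named. Every row but that of the linker and polymer enzymes has genes beyond a log2 fold change of 1 on both sides of 0.

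The genes whose levels across the 6 libraries were most like those of 2 members were found by the distance between their log2 CPM around the gene mean, among genes with a mean of at least 20 CPM. Likeness in fold change and in the order of libraries follows from that choice and is a description only. Nearest to Gpc4, the member higher in iRGCs with the smallest adjusted p, were Cyp46a1, Apoe and Mad2l1, at distances of 0.34, 0.36 and 0.40 log2 units and with log2 fold changes of 2.28, 2.22 and 2.33. Apoe, the lipid carrier, had CPM of 41.6, 59.4 and 43.2 in iRGCs and of 8.64, 13.8 and 8.48 in cRGCs, with the same second libraries highest. Among the nearest to Gpc1 were Tro and Lrfn3, at distances of 0.08 and 0.12, with log2 fold changes of -0.95 and -0.89. Tro had CPM of 111, 116 and 117 in iRGCs and of 236, 205 and 223 in cRGCs, and so came close to Gpc1 in level too.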

How the data were processed

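The RNA-seq part of the series was analysed, with 3 iRGC and 3 cRGC libraries of sorted E16.5 retinal cells. The authors aligned reads to mm10 with HISAT2 (2.1.0 in the submitters' processing notes), counted them with HTSeq (0.11.1) on Ensembl genes of GRCm38 and deposited raw counts per gene, 1 table per library. A read on bases shared by genes of the same strand goes to none of them; the strand setting is not given in the sources used here. Tallies that name no gene, 43.1% to 47.3% of all tallies, stayed out of library sizes and tests. GENCODE M21 gave symbols, positions and exon lengths for 46574 of 47069 identifiers.

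The test was that of edgeR 4.0.16 (R 4.3.3): filterByExpr, TMM, quasi-likelihood F test, two-sided, Benjamini-Hochberg over all 15941 tested genes, adjusted p under 0.1. The study used DESeq2, which is an alternative here (1.42.0), beside limma voom (3.58.1), other scalings and filters, an adjusted p of 0.05, protein-coding genes alone, left-out libraries and a replicate block. Log2 fold changes are of iRGC over cRGC, with SE as their absolute value over the square root of F. The biological coefficient of variation was 36.3%. CPM per kilobase is TMM-scaled CPM over the merged exon length, and the distance between genes used log2(CPM + 0.5). Figures were drawn with matplotlib 3.10.9.

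The members, the gene lists and the alternatives were chosen with earlier results of these data known. All members are described. From each heparan sulfate list the up to 3 genes with the smallest adjusted p in each direction are named. Ndst1, Sdcbp and Srgn were named after their values were seen. A gene among those nearest to a member is not reported here.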

Additional observations from a re-analysis of the deposited data

How the results depend on the processing

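Over 18 alternative analyses none of the 9 tested members changed direction, and 8 were called, 5 higher and 3 lower, in each of the 6 that left out 1 library and without the second library of both populations. A log2 fold change beyond 1 asked as well left 3688 genes (1930 higher in iRGCs, 1758 lower), 1 lower member (Gpc1 and Sdc3 dropped out) and 32 genes of the heparan sulfate lists, against 7395 (3707 higher, 3688 lower), 3 and 50. CPM of library totals, which shift the median log2 fold change by 0.21, gave 5100 genes higher and 2842 lower, brought Sdc1 past the threshold (0.45), and left 2 of the linker and polymer enzymes lower in place of 5. Leaving out 1 library at a time gave 6303 to 7603 genes past the threshold (5472 without both second libraries), and 3 chain-modifying enzymes higher, not 5, without iRGC replicate 1, iRGC replicate 3, cRGC replicate 1 or cRGC replicate 3; the linker and polymer enzymes lower in iRGCs were 3 without cRGC replicate 1, and those higher were 1, not 3, without both second libraries. Of the release and cleavage genes, 5 and not 7 were higher in iRGCs without iRGC replicate 2. The cause of these moves was not tested.

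The summed glypican level, 65.1 CPM per kilobase in iRGCs and 77.6 in cRGCs, was 78.7 and 91.9 with the length of the longest transcript, 70.0 and 72.3 with library totals, and 83.1 and 115 with exonic bases that no other gene shares, an alternative chosen after seeing the data, as was leaving out both second libraries. The summed syndecan level, 54.8 and 66.9, was 63.3 and 79.9 with the longest transcript and 58.8 and 62.3 with library totals, under which the libraries of the populations overlapped for both families. Sdc4, not Gpc4, had the largest log2 fold change of the members under limma voom (2.52 against 2.36), the replicate block (2.55 against 2.36), without iRGC replicate 2 (2.25 against 2.095), without cRGC replicate 2 (3.24 against 2.80) and without both second libraries (3.26 against 2.58).

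Replicate numbers are shared by the labels of both populations, but same-numbered libraries did not deviate together (r = -0.014, -0.045 and -0.067). With the replicate block 6751 genes, 8 members and 46 genes of the lists passed. Gpc5 had too few counts to be tested. The log2 fold change of Sdc4, 2.19, became 3.24 without cRGC replicate 2, the library that stood above the other cRGC libraries.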
